A study of Mus musculus with 18 samples.

Results

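The genes described here encode the enzymes, and 1 transporter, that bring the amino acid arginine into the cell, rebuild it, and turn it into nitric oxide or, by way of ornithine, polyamines. They are *Nos2*, *Slc7a2*, *Ass1*, *Asl*, *Odc1* and *Srm*, 6 of the 20298 genes of the expression table, chosen by name and matched to the gene symbol while ignoring case. *Sms* and *Sat1*, a polyamine synthase and a polyamine acetyltransferase, had no row and were not analysed here. The rule that chose the genes uses names and no measured value, but the names were listed with earlier results of these data known.

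RNA was sequenced from 18 libraries of mouse monocytes and of the monocyte-derived cells (MDCs) grown from them, in 6 groups of 3 libraries. WT monocytes and monocytes of *Stat5a-Stat5b* double knockin (DKI) mice, whose N-domain mutations leave STAT5 able to pair but not to form tetramers, were compared untreated on day 0 and on days 3 and 6 of culture with GM-CSF at 20 ng/ml. The labels give all mice as C57BL/6, the methods of the study give C57BL/6J for DKI mice, and DKI mice carry the mutations in every cell, so that the WT and DKI groups also differ in whatever the mutation did in the animal before the monocytes were taken. The cells were enriched from bone marrow by negative selection and were harvested in bulk, so that other cell types of the marrow could remain, and the series describes 3 independent experiments. If libraries of a group came from shared mice or cultures, their spread would be partly technical, and the p-values below measure only the spread between these libraries.

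The sample labels name liver as the tissue, and the paper and the series design name bone marrow. The hepatocyte markers *Alb*, *Ttr* and *Serpina1a* were at 0 RPKM in all 18 libraries, and the 6 hepatocyte markers summed to at most 0.0843 RPKM. RPKM, the unit of all levels here, is the number of reads on a gene scaled by its length and by the mapped reads of the library, so that levels can be set side by side between genes. Estimated depth was 29.6 to 43.2 M reads per library (median 36.5 M, M standing for 1e6 reads). At the lowest of these depths 3 reads correspond to 0.0230 RPKM for *Nos2*, which covers counting error only. The knockin alters codons, so that RPKM cannot check the genotype labels. Of the mutated genes, *Stat5a* was called lower in DKI than in WT MDCs on day 3 (-1.67 on the log2(RPKM + 1) scale, limma adjusted p = 0.0224) and day 6 (-1.68, adjusted p = 0.0357, 0.0516 when blocked on replicate number), but not on day 0 (-0.08), and *Stat5b* was not called on any day (-0.08, -0.53 and -0.68).

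Arginine enters macrophages through cationic amino acid transporters such as the product of *Slc7a2*. Inside the cell, inducible nitric oxide synthase, encoded by *Nos2*, oxidizes it to nitric oxide and citrulline. Argininosuccinate synthase and lyase (*Ass1* and *Asl*) rebuild arginine from citrulline, and ornithine decarboxylase and spermidine synthase (*Odc1* and *Srm*) lead from ornithine to the polyamines. In macrophage biology *Nos2* is a classic marker of cells exposed to bacterial products and interferon.

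Among these genes, *Ass1* was called lower in DKI than in WT MDCs on days 3 and 6 and *Asl* on day 6, of which the call of *Ass1* on day 6 held in a fit blocked on replicate number and none held without replicate 1 of both genotypes. The transporter gene *Slc7a2* rose from day 0 to day 3 in both genotypes, and *Nos2* stayed low in nearly all libraries. Differences were tested with limma on log2(RPKM + 1), which understates the change of genes with low RPKM. All genes with a mean RPKM above 2 in a group compared were fitted, and a gene was called at a Benjamini-Hochberg adjusted p under 0.05 over all genes fitted together with a fold change above 1.5. *Nos2* on day 3 and *Slc7a2* from day 0 to day 3 entered the fit only through the group where each is high. With no filter the change of *Slc7a2* from day 0 to day 3 was still called, with adjusted p of 0.00128 in WT and 0.00825 in DKI cells, whereas no member was called between the genotypes (*Ass1* at 0.0577 on day 3 and 0.0771 on day 6, *Asl* at 0.0680 on day 6). Libraries of the same number varied together across genotypes, and the adjusted p from a fit blocked on replicate number stands beside a value where it changes the call.

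**Figure D1:**
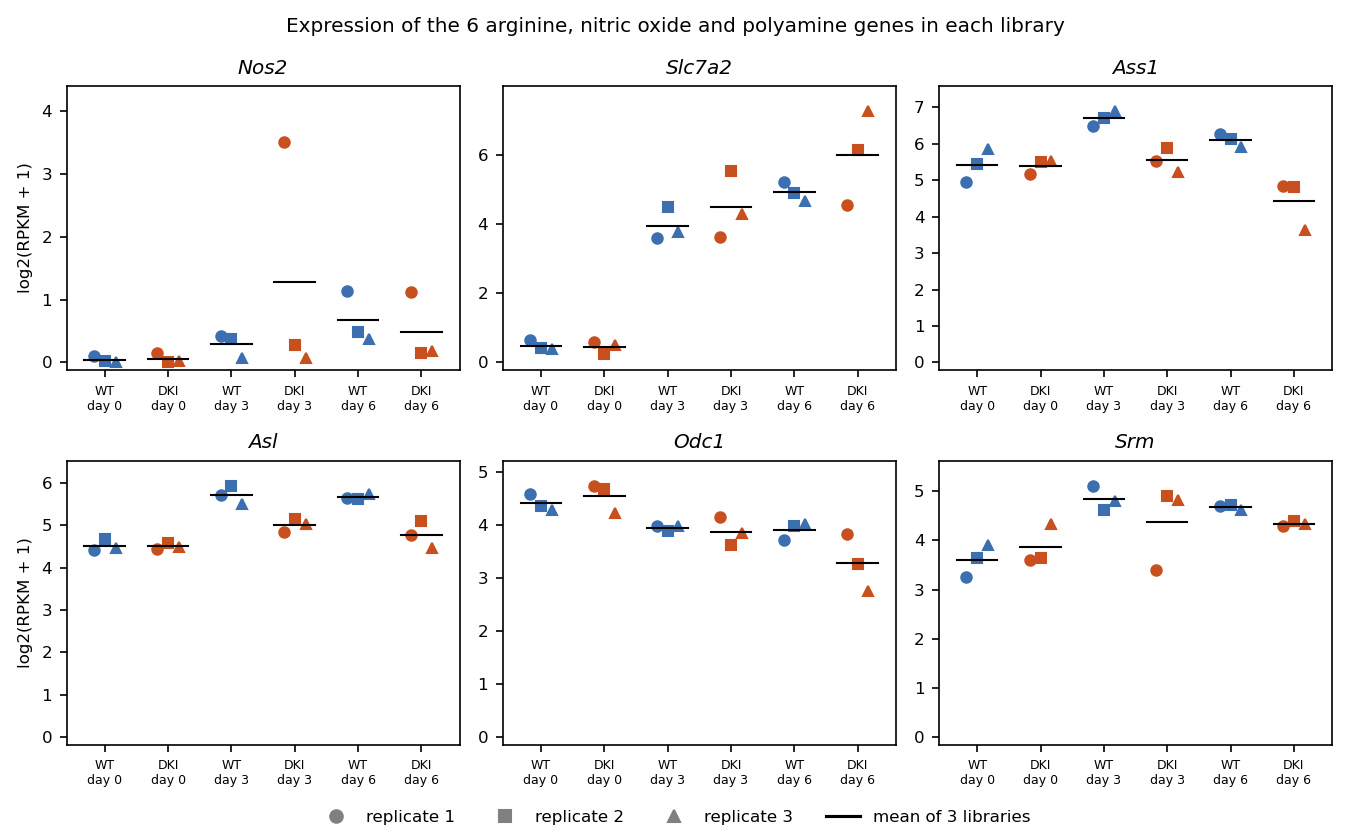
Level of each of the 6 genes in all 18 libraries as log2(RPKM + 1), with WT in blue, DKI in orange, a marker shape for each replicate number and a black line at the mean of 3 libraries. *Slc7a2* lies near 0 on day 0 and higher in all libraries of days 3 and 6, while *Ass1* and *Asl* lie below all WT libraries in each DKI library on these days.

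*Nos2* (chromosome 11, 78920787 to 78960226, plus strand) was at 1.21 RPKM or lower in 17 of the 18 libraries. On day 0 no library exceeded 0.110 RPKM, and 2 libraries were at 0. Its day 3 levels were 0.334, 0.300 and 0.0468 RPKM in WT and 10.4, 0.216 and 0.0483 RPKM in DKI MDCs (replicates 1, 2 and 3, the order used throughout). By day 6 the levels were 1.21, 0.403 and 0.298 RPKM in WT and 1.18, 0.109 and 0.138 RPKM in DKI MDCs. The high mean of DKI MDCs on day 3 therefore came from replicate 1 alone, and the genotypes overlapped on every day. The day 3 difference of 1.0004 (95% interval -1.18 to 3.18) was not called (limma adjusted p = 0.523), and *Nos2* did not reach the limit for fitting in DKI against WT on days 0 and 6. GM-CSF is the only agent that the labels name for these cultures.

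*Slc7a2*, which encodes the cationic amino acid transporter CAT2 (chromosome 8, 40862341 to 40922070, plus strand), differed between monocytes and MDCs in both genotypes. On day 0 it ranged from 0.321 to 0.569 RPKM in WT and from 0.183 to 0.511 RPKM in DKI monocytes. Day 3 libraries had 11.1, 21.4 and 12.5 RPKM in WT and 11.2, 45.0 and 18.5 RPKM in DKI MDCs. Its day 6 levels were 35.9, 28.7 and 24.2 RPKM in WT and 22.4, 68.7 and 152 RPKM in DKI MDCs. DKI MDCs held both the lowest and the highest library on day 6. The differences between genotypes were 0.53 on day 3 (95% interval -0.68 to 1.73, limma adjusted p = 0.546) and 1.06 on day 6 (95% interval -0.48 to 2.60, adjusted p = 0.324). Neither was called, and both intervals reach from below 0 to well above it. Without DKI replicate 3 the day 6 difference was 0.42 and without DKI replicate 1 it was 1.77. Exons of *Slc7a2* overlap the noncoding gene *Gm26584* by 635 bases on the opposite strand, and the strand setting of the counting is not given in the sources used here, so that some reads counted on *Slc7a2* could come from that gene.

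*Ass1* and *Asl*, which rebuild arginine from citrulline, were both called lower in DKI than in WT MDCs on at least 1 day. *Ass1* (chromosome 2, 31470270 to 31520670, plus strand) was at 30.0, 43.0 and 56.9 RPKM in WT and at 35.1, 44.4 and 44.9 RPKM in DKI monocytes on day 0. On day 3 it was at 89.1, 104 and 118 RPKM in WT and at 45.6, 58.6 and 36.5 RPKM in DKI MDCs. Day 6 libraries had 76.1, 69.6 and 59.7 RPKM in WT and 27.5, 27.3 and 11.4 RPKM in DKI MDCs. Every WT library was above every DKI library on days 3 and 6, and the genotypes overlapped on day 0. The difference on day 3 was -1.15 (SE 0.22, limma adjusted p = 0.0326), and with the block it was not called (adjusted p = 0.0657). On day 6 it was -1.68 (SE 0.34, adjusted p = 0.0405). DKI MDCs on day 6 had the lowest mean *Ass1* of all 6 groups (22.1 ± 9.24 RPKM, SD, n = 3). DKI monocytes on day 0 were at 41.5 ± 5.53 RPKM, and day 6 was not tested against day 0. Leaving out any one library other than DKI replicate 2 took the adjusted p to between 0.0506 and 0.113 on day 3 and to between 0.0508 and 0.132 on day 6, with differences of -1.25 to -0.98 and of -1.88 to -1.28.

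*Asl* (chromosome 5, 130011258 to 130024381, minus strand) was at 20.3, 24.6 and 20.9 RPKM in WT and at 20.7, 23.0 and 21.2 RPKM in DKI monocytes on day 0. Its day 3 levels were 51.6, 59.8 and 44.4 RPKM in WT and 27.8, 34.3 and 31.7 RPKM in DKI MDCs. On day 6 it was at 48.7, 47.8 and 52.0 RPKM in WT and at 26.1, 33.1 and 20.9 RPKM in DKI MDCs. As for *Ass1*, the genotypes did not overlap on days 3 and 6. The difference was -0.71 on day 3 (SE 0.17, limma adjusted p = 0.0560, not called) and -0.89 on day 6 (SE 0.19, adjusted p = 0.0441, 0.0617 with the block). Without any one library of day 6 other than DKI replicate 2, the adjusted p of *Asl* was between 0.0869 and 0.153 and the difference between -0.91 and -0.73. Over the 18 libraries, which share groups and scaling, Pearson's r of the 15 pairs among the 6 genes ranged from -0.898 for *Odc1* and *Slc7a2* to 0.735 for *Srm* and *Asl*, with 0.721 for *Ass1* and *Asl*, given as a description.

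Neither of the enzymes that lead to the polyamines was called between genotypes. *Odc1*, the rate-limiting enzyme of polyamine synthesis (chromosome 12, 17544808 to 17551502, plus strand), was at 18.6 to 23.1 RPKM in WT and 17.8 to 25.8 RPKM in DKI monocytes on day 0. Day 3 libraries had 14.8, 13.9 and 14.8 RPKM in WT and 16.8, 11.3 and 13.4 RPKM in DKI MDCs. By day 6 the levels were 12.2, 14.8 and 15.3 RPKM in WT and 13.3, 8.67 and 5.80 RPKM in DKI MDCs. Replicate 1 of the DKI group lay within the WT range on day 6 and the other replicates below it. The difference was -0.08 on day 3 (95% interval -0.48 to 0.32, limma adjusted p = 0.783) and -0.62 on day 6 (95% interval -1.29 to 0.05, adjusted p = 0.202), the latter ranging from -0.89 to -0.36 on leaving out 1 library.

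*Srm* (chromosome 4, 148591513 to 148594619, plus strand) was at 8.53, 11.5 and 13.9 RPKM in WT and at 11.2, 11.4 and 19.1 RPKM in DKI monocytes. On day 3 it was at 33.5, 23.4 and 26.9 RPKM in WT and at 9.56, 29.1 and 27.4 RPKM in DKI MDCs. Its day 6 levels were 25.0, 25.5 and 23.6 RPKM in WT and 18.7, 19.9 and 19.3 RPKM in DKI MDCs. The single low DKI library on day 3 was replicate 1, and the difference was -0.46 (95% interval -1.47 to 0.54, limma adjusted p = 0.523). Day 6 had little spread in either genotype and no overlap, with a difference of -0.34 (SE 0.12, 95% interval -0.63 to -0.05) that was not called (limma adjusted p = 0.128).

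Counted over the 6 genes, day 3 gave none called higher in DKI MDCs, 1 called lower (*Ass1*) and 5 not called, where limma called 7.42% of all 9740 genes fitted (3.21% higher and 4.21% lower). Day 6 gave none called higher, 2 called lower (*Ass1* and *Asl*) and 3 not called of 5 fitted, where 7.54% of all 9842 genes fitted were called (2.72% higher and 4.82% lower). With the block, none was called on day 3 and 1 on day 6 (*Ass1*), where 5.66% and 7.31% of all genes fitted were called. Replicate 1 of both genotypes on days 3 and 6 bears an earlier year in its library name than all other libraries. Without it none of the members was called on either day, where limma called 3.8% of all genes fitted on day 3 and 0.388% on day 6, with *Ass1* at -1.24 (limma adjusted p = 0.0823) on day 3, and *Ass1* at -1.80 (0.178) and *Asl* at -0.90 (0.230) on day 6. WT and DKI libraries were fully separated for 2 of the 6 genes on day 3 (*Ass1* and *Asl*) and for 3 of the 5 fitted on day 6 (*Ass1*, *Asl* and *Srm*), against 36.3% and 37.2% of all genes fitted. The median difference was -0.27 over the 6 genes and -0.11 over all genes on day 3, and -0.62 over the 5 fitted and -0.17 over all genes on day 6. With each library centred on its median, which removes most of this shift over all genes, *Ass1* was at -1.07 and -1.54 and *Asl* at -0.63 and -0.74 on days 3 and 6. *Asl* was then called on day 3 (limma adjusted p = 0.0455) and not on day 6 (adjusted p = 0.0529). With this centring 323 genes were called higher and 285 lower on day 6, against 268 and 474 without it. On day 0, limma called none of the 4 genes fitted and none of the 9179 genes fitted in all (0% called), of which 44 had an unadjusted p under 0.05. The 4 day 0 differences ranged from -0.023 to 0.26, and all 4 genes overlapped between genotypes, while 1.03% of all genes fitted did not.

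**Figure D2:**
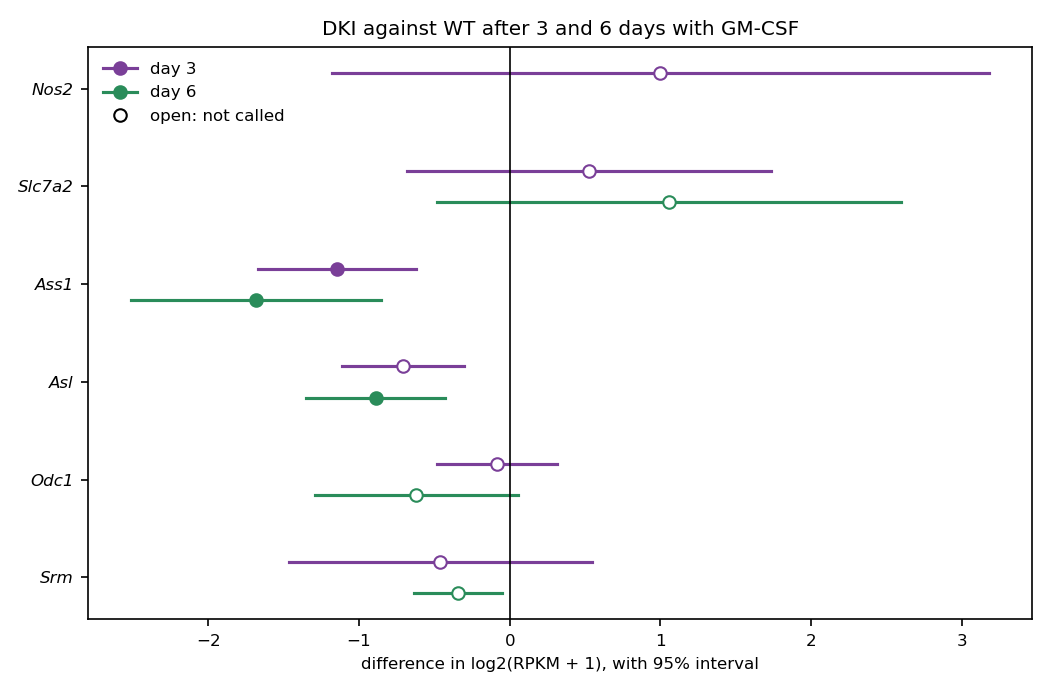
Difference between DKI and WT MDCs in log2(RPKM + 1) for each gene on day 3 (purple) and day 6 (green), as points with 95% intervals from limma, filled where called. *Ass1* is filled on both days at -1.15 and -1.68, *Asl* on day 6 at -0.89, and *Nos2* was not fitted on day 6.

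Markers of monocyte-derived dendritic cells and of macrophages moved with genotype in the same libraries, and limma called none of the markers of the other lists that were fitted. The 5 markers of monocyte-derived dendritic cells summed to 5182 to 9448 RPKM in WT and 112 to 429 RPKM in DKI MDCs on day 3, and to 4176 to 10390 and 406 to 477 RPKM on day 6, with 4 of the 5 called lower on each day (3 with the block, where *Cd209a* had an adjusted p of 0.0563 and 0.0617). The 5 macrophage markers summed to 197 to 447 RPKM in WT and 872 to 1567 RPKM in DKI MDCs on day 3, and to 258 to 556 and 759 to 1299 RPKM on day 6, with 3 and 2 called higher (3 on day 6 with the block, where *Mertk* had an adjusted p of 0.0328). The 5 monocyte markers summed to 450 to 669 RPKM in WT and 680 to 1845 RPKM in DKI MDCs on day 3, and to 285 to 657 and 521 to 1071 RPKM on day 6, with none called. None of the 6 neutrophil markers was called on either day, and they summed to 24.8, 515 and 4.04 RPKM in WT and 401, 493 and 25.4 RPKM in DKI MDCs on day 3, and 165, 10.9 and 2.63 and 507, 10.5 and 6.55 RPKM on day 6. The 5 B cell markers summed to 0.364 to 0.459 RPKM in WT and 1.25 to 7.10 RPKM in DKI MDCs on day 3, and to 0.183 to 0.736 and 1.21 to 3.48 RPKM on day 6. The markers of T and NK cells and of the erythroid line summed to at most 9.17 RPKM and 0.113 RPKM on these days, and those of eosinophils, basophils and mast cells to at most 127 RPKM. The part of these cell types in the differences of *Ass1* and *Asl* was not tested, and in bulk RNA a change in the number of cells of a type cannot be told apart from a change in RNA per cell.

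The course from day 0 to day 3 was compared within each genotype. In WT cells 4 of the 5 genes fitted were called, where limma called 43.1% of all genes fitted (20.3% higher and 22.8% lower, that is 2013 and 2270 genes, or 2267 and 2000 with median centring), and all 5 had no overlap between the days, as did 61% of all genes. *Slc7a2* rose by 3.46 (SE 0.26, limma adjusted p = 0.000174), *Ass1* by 1.28 (SE 0.25, adjusted p = 0.00564), *Asl* by 1.20 (SE 0.16, adjusted p = 0.00145) and *Srm* by 1.24 (SE 0.22, adjusted p = 0.00370). *Odc1* was at -0.46 with an adjusted p of 0.0299, but below the limit of 1.5-fold. In DKI cells 1 of the 6 genes fitted was called, where 34.2% of all genes fitted were called (13.1% higher and 21.1% lower, that is 1297 and 2097 genes, or 1743 and 1622 with median centring). This was *Slc7a2*, which rose by 4.02 (SE 0.47, limma adjusted p = 0.00246). *Ass1* was at 0.16 (95% interval -0.37 to 0.68), *Srm* at 0.52 (95% interval -0.53 to 1.57) and *Odc1* at -0.68 (adjusted p = 0.0506). *Asl*, at 0.51, had an adjusted p of 0.0427 but a fold change below 1.5. The days did not overlap for 3 of the 6 genes (*Slc7a2*, *Asl* and *Odc1*), nor for 55.2% of all genes. Without DKI replicate 1 of day 3, *Srm* was at 1.01 (adjusted p = 0.0301), *Asl* at 0.59 (0.0221) and *Odc1* at -0.82 (0.0308), so that 4 genes were called, where 34.4% of all genes fitted were called. Without DKI replicate 3 of day 0, *Odc1* was at -0.84 and called (adjusted p = 0.0407). Within the libraries of the later year, the DKI values from day 0 to day 3 are those without replicate 1 of day 3.

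**Figure D3:**
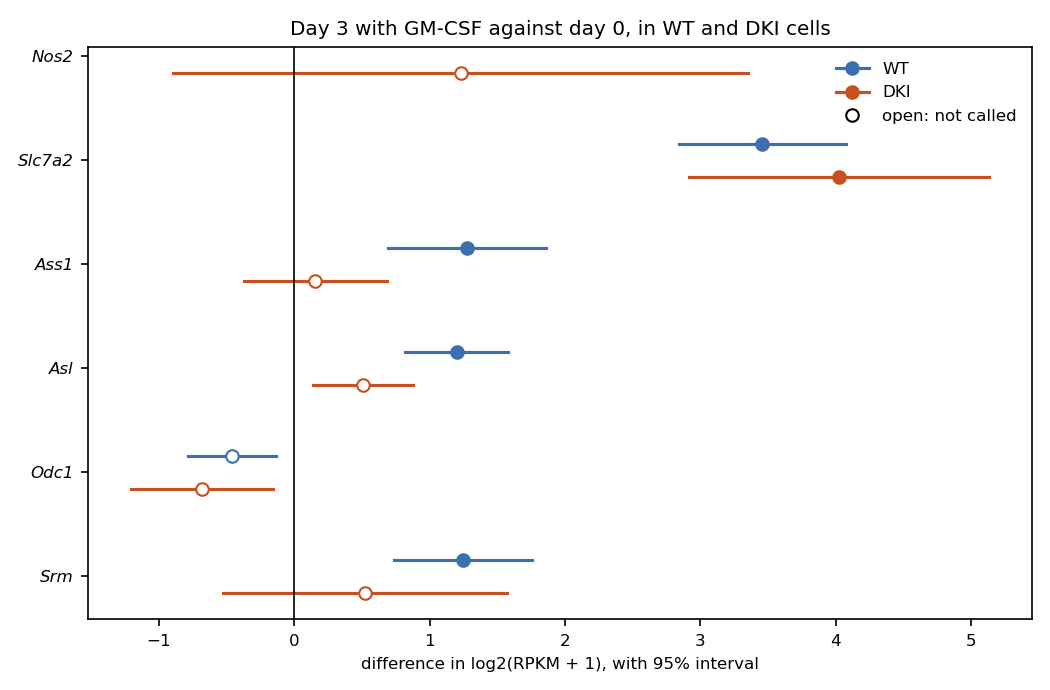
Difference between day 3 and day 0 in log2(RPKM + 1) for each gene in WT (blue) and DKI (orange) cells, as points with 95% intervals from limma, filled where called. *Slc7a2* is filled in both genotypes at 3.46 and 4.02, and *Ass1*, *Asl* and *Srm* in WT alone.

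Whether the genotypes differed in this course was tested as an interaction over the 12 libraries of days 0 and 3. limma called none of the 6 genes, where 2.91% of all 10212 genes fitted were called. An unadjusted p under 0.05 was found for 2 of the 6 (*Ass1* and *Asl*) and for 1606 of the 10212. With the block *Asl* was called, at -0.69 (limma adjusted p = 0.0499, 0.110 without the block), where 3.82% of all genes fitted were called. This block joins libraries of both days by number. Since the numbers did not pair day 0 with day 3, no conclusion is drawn from that call. *Ass1*, at -1.12 (adjusted p = 0.124, 0.0868 with the block), and *Srm*, at -0.72 (0.579, and -0.23 without DKI replicate 1 of day 3), were not called, so that for these genes a call in WT and none in DKI was not shown to be a difference between the genotypes.

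From day 3 to day 6, limma called none of the members and none of the genes fitted in either genotype (0% of 9613 in WT and of 9540 in DKI), of which 722 and 93 had an unadjusted p under 0.05. In WT cells *Slc7a2* was at 0.97 (95% interval 0.33 to 1.60, adjusted p = 0.632) and *Ass1* at -0.59 (95% interval -0.97 to -0.21, adjusted p = 0.632), and for both the libraries of the 2 days did not overlap, as for 14.3% of all genes. In DKI cells *Ass1* was at -1.13 (95% interval -2.04 to -0.22, adjusted p = 0.999) without overlap, as for 4.43% of all genes. The interaction of genotype with day 3 to day 6 was also called for none of the 6 members or of the 9985 genes fitted (0%, 89 with an unadjusted p under 0.05).

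Other genes that handle arginine and its products were taken from a list of transporters, urea cycle, ornithine and proline, nitric oxide, polyamine and creatine genes, of which 46 were in the table. On day 3, 1 of the 30 fitted was called higher and 1 lower in DKI MDCs, and on day 6 none of 32 higher and 1 lower, where 7.42% and 7.54% of all genes fitted were called. The median difference was -0.23 on day 3 and -0.18 on day 6, against -0.11 and -0.17 over all genes. The gene called higher on day 3 was *Ddah2*, whose product is related to an enzyme that degrades methylated arginines, inhibitors of nitric oxide synthase. It was at 0.357, 0.433 and 0.253 RPKM in WT and at 2.03, 1.83 and 3.23 RPKM in DKI MDCs on day 3, a difference of 1.30 (SE 0.25, limma adjusted p = 0.0323, 0.0690 with the block), and at 0.89 on day 6 (adjusted p = 0.249). *Ddah2* entered the fit on day 3 only through DKI MDCs, the group where it is high, and in the fit with no filter its adjusted p was also 0.0323. The gene called lower on day 3 was *Aldh18a1*, which starts the synthesis of proline and ornithine from glutamate. It was at 35.1, 31.9 and 26.8 RPKM in WT and at 7.63, 14.1 and 14.8 RPKM in DKI MDCs, a difference of -1.33 (SE 0.26, adjusted p = 0.0352, 0.0716 with the block and 0.0709 with no filter). The same gene was at -0.97 on day 6 (adjusted p = 0.0714), which was called with the block (adjusted p = 0.0436). *Spr*, which makes the nitric oxide synthase cofactor tetrahydrobiopterin, was called lower on day 6 at -0.98 (SE 0.20, adjusted p = 0.0409, 0.0562 with the block and 0.0669 with no filter) and was at -0.98 on day 3 (adjusted p = 0.0721).

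By group, none of the 5 transporters fitted was called on either day, where 7.42% and 7.54% of all genes fitted were called. *Slc7a7*, the light chain of an arginine exporter, was at 42.5, 24.2 and 40.3 RPKM in WT and at 21.4, 10.6 and 8.92 RPKM in DKI MDCs on day 6 (-1.38, adjusted p = 0.0682), and *Slc7a6* was at -0.95 (0.0641). *Slc7a1*, which encodes the cationic transporter CAT1, was at -0.53 on day 3 (0.301) and 0.06 on day 6 (0.942). Of the urea cycle genes only *Nags* was fitted, on day 6, at -1.34 (0.0901, 0.125 with no filter), and it entered the fit only through WT MDCs, the group where it is high, as did *Prodh* and *Azin2* on day 6. Of the ornithine and proline genes, 1 of 4 fitted was called on day 3 and none of 5 on day 6. With the block it was none and 1, where 5.66% and 7.31% of all genes fitted were called. The gene called was *Aldh18a1* each time. On days 3 and 6 *Aldh4a1* was at -0.58 and -0.70 and *Oat*, the aminotransferase that takes ornithine towards proline, at -0.25 and -0.51, while *Prodh* was fitted on day 6 only, at -0.64, and none of these was called. Of the other tetrahydrobiopterin genes, *Pts* was at -0.88 and -0.55, *Qdpr* at -0.64 and -0.39, and *Gch1* at 0.41 and 0.57 on days 3 and 6, and none was called.

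None of the 12 polyamine genes fitted was called on days 3 or 6. *Atp13a2*, a lysosomal polyamine exporter, was at 37.1, 24.1 and 37.6 RPKM in WT and at 155, 64.1 and 91.6 RPKM in DKI MDCs on day 3, without overlap. Its difference was 1.56 (SE 0.35, limma adjusted p = 0.0502), which was called with the block (adjusted p = 0.0348), and on day 6 it was 1.16 (adjusted p = 0.184). In the interaction of days 0 and 3 *Atp13a2* was at 1.55 (adjusted p = 0.0725). It was called there with the block (0.0454), which joins days that the replicate numbers did not pair. *Paox*, polyamine oxidase, was at 0.78 on day 3 (0.155), where it entered the fit only through DKI MDCs, and *Azin2* at -0.68 on day 6 (0.454). None of the 3 creatine genes was called, with *Ckb* at -1.09 and -0.59, *Gamt* at 0.27 and 0.43 and *Gatm* at -0.41 and 0.28. Of 14 genes known to regulate enzymes of this pathway, none was called on day 3 and 1 was called higher on day 6, where 7.42% and 7.54% of all genes fitted were called. With the block *Tnf* was also called on day 6, as lower, at -0.97 (adjusted p = 0.0454, 0.222 without the block). The gene called higher was *Pparg*, a lipid-activated nuclear receptor, at 3.67, 4.12 and 2.10 RPKM in WT and at 12.5, 10.1 and 15.96 RPKM in DKI MDCs on day 6, a difference of 1.70 (SE 0.25, adjusted p = 0.0217, 0.0523 with no filter), and at 1.04 on day 3 (0.107). *Cebpb*, a transcription factor of myeloid cells, was at 1.51 on day 3 (0.119) and 1.23 on day 6 (0.138), *Irf1* was at 1.65 (0.0870) and 0.69 (0.294), and *Klf4* at 0.84 (0.198) and 1.27 (0.166).

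**Figure D4:**
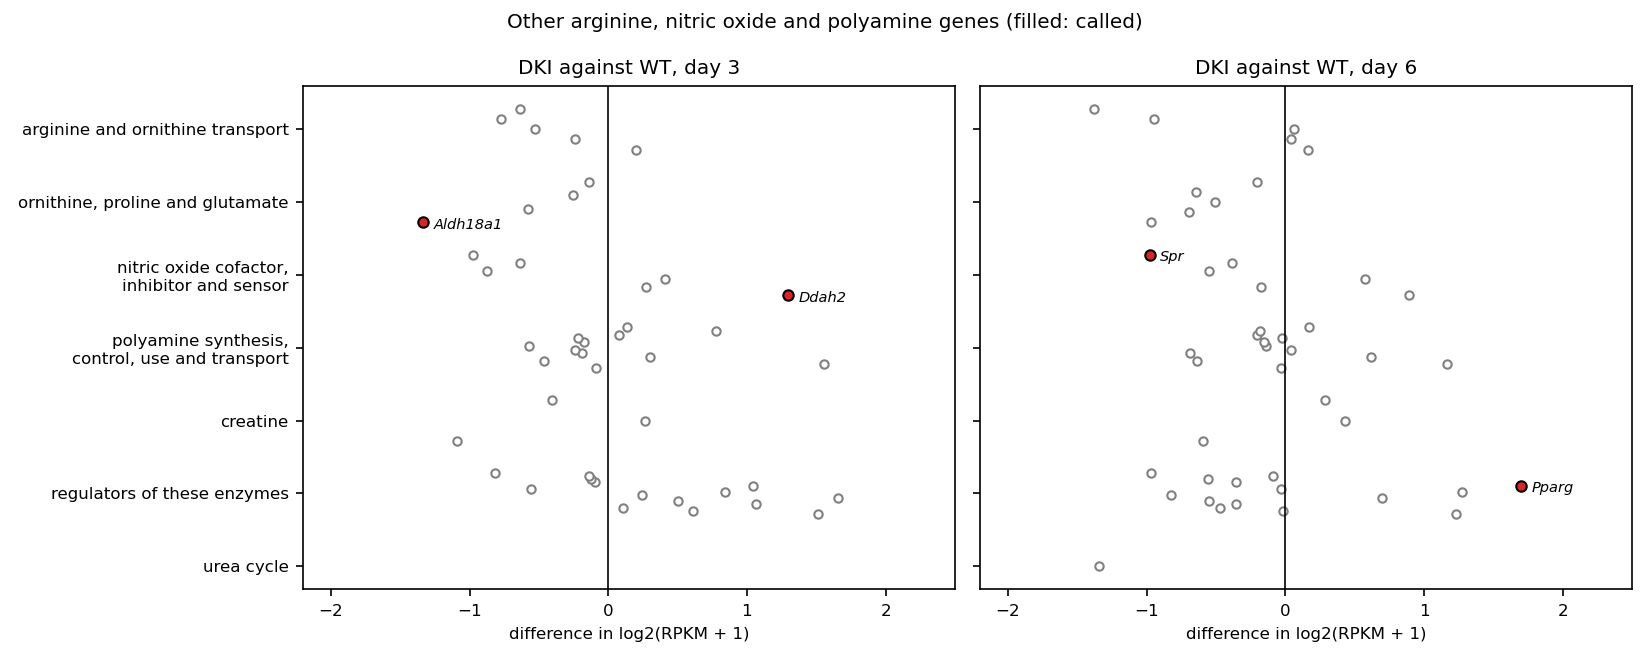
Difference between DKI and WT MDCs in log2(RPKM + 1) on day 3 (left) and day 6 (right) for each fitted gene of the wider lists, 1 point per gene, filled in red where called by limma. *Aldh18a1* at -1.33 and *Ddah2* at 1.30 are filled on day 3, and *Spr* at -0.98 and *Pparg* at 1.70 on day 6.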

How the data were processed

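RNA of 18 libraries was measured by RNA-seq (Kapa mRNA HyperPrep, HiSeq2000, single-end reads). The authors aligned reads to mm10 with Subread, counted them over RefSeq genes with featureCounts and deposited RPKM values. Tool versions and the strand setting are not given in the sources used here. The counts behind the RPKM values were not used, and depth (29.6 to 43.2 M reads, M being 1e6) was estimated from the RPKM steps of 855 single-exon genes, of whose low values 72.6% to 88.0% came out whole within 0.05 read (10% by chance).

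From these, log2(RPKM + 1) was fitted with limma 3.58.1 (R 4.3.3) with an intensity trend, for genes with a mean RPKM above 2 in a fitted group, and called where p adjusted by Benjamini-Hochberg was under 0.05 and the fold above 1.5. The limma step was checked on simulated data for the size and sign of planted changes. These were larger than any genotype difference of the members, and the simulated libraries were not correlated. The check therefore does not bear on calls of smaller differences. Groups follow the labels. The members and lists were chosen with earlier results of these data known.

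Named genes are the members, *Stat5a* and *Stat5b*, and from each wider list the called genes and at most 3 others with the largest difference. Marker lists covered hepatocytes, monocytes, monocyte-derived dendritic cells, macrophages, neutrophils, B cells, T and NK cells, the erythroid line, and eosinophils with basophils and mast cells.

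Groups share replicate numbers. Deviations of same-numbered WT and DKI libraries correlated at 0.686 to 0.865 on day 0, 0.163 to 0.369 on day 3 and 0.338 to 0.413 on day 6. Those of days 3 and 6 within a genotype correlated at 0.125 to 0.743. The main fits, and all calls not marked as blocked, nevertheless leave this pairing out. It enters only through the replicate block, which is an alternative. The numbers did not pair day 0 with day 3 (-0.208 to 0.180).

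The alternatives were another pseudocount (0.1), no filter, median centring, quantile normalization, all 18 libraries in one fit, a replicate block, no intensity trend and leaving out each library, plus, chosen after seeing the data, only the libraries whose names hold the later of 2 years. Gene positions are from RefSeq on mm10, where 20082 of 20298 gene IDs matched. *Sms* and *Sat1* were not analysed here, and some genes of the lists, with the results that need them, are not reported here.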

Additional observations from a re-analysis of the deposited data

Results flagged for a closer look

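The interaction of days 0 and 3 was called for 1 gene, *Ddah2*, among the members and the genes named from the wider lists. This test of the difference itself was without the replicate block, where 2.91% of all genes fitted were called (3.82% with the block). The genes named from the lists were those called between DKI and WT MDCs or with the largest differences. *Ddah2* was itself called on day 3, and the interaction uses the same day 3 libraries. The count of 1 therefore cannot be compared with the share over all genes. With the block, *Asl* (-0.69, limma adjusted p = 0.0499) and *Atp13a2* (1.55, adjusted p = 0.0454) were called as well. The block joins both days by replicate number, and the numbers did not pair day 0 with day 3. No conclusion is drawn from calls that appear only with it. For *Ddah2* the change, DKI minus WT, was 1.29 on the log2(RPKM + 1) scale (SE 0.30, limma adjusted p = 0.0476, 0.0437 with the replicate block). It entered this fit only through DKI MDCs of day 3, the group where it is high, and with no filter its adjusted p was 0.0451. With no filter it fell in WT cells from day 0 to day 3 (-0.996, adjusted p = 0.00325) and was at 0.30 in DKI cells (adjusted p = 0.411, not called). *Ddah2* was at 1.36, 1.73 and 2.00 RPKM in WT monocytes and 1.24, 2.20 and 1.73 RPKM in DKI monocytes on day 0. With 3 libraries per group, no single library was tested for standing apart.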

How the results depend on the processing

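The number of members called by limma, 1 on day 3 in DKI against WT, was 0 without the filter on RPKM, 2 with median centring, 2 with all 18 libraries in one fit, 0 with the replicate block, 0 with only the libraries whose names hold the later year (added after seeing the data) and 0 to 1 on leaving out 1 library. With all 18 libraries in one fit *Asl* was also called on day 3 (adjusted p = 0.00821). On day 6, against 2, it was 0 without the filter, 1 with median centring, 1 with the block, 0 with the later-year libraries and 0 to 2 on leaving out 1 library. From day 0 to day 3 in DKI cells, against 1, it was 2 with median centring, with quantile normalization and with all 18 libraries in one fit, 4 with the later-year libraries and 1 to 4 on leaving out 1 library (4 without DKI replicate 1 of day 3). For the interaction of days 0 and 3, against 0, it was 1 with the block, which joins days that the numbers did not pair. Of all genes fitted, 2.27% were called on day 3 without the filter, 7.61% with median centring, 14% with all 18 libraries in one fit and 5.66% with the block, and on day 6 1.17%, 6.18%, 16% and 7.31%. From day 0 to day 3 in DKI cells the shares were 33.9% with median centring, 33.1% with quantile normalization, 40.7% with all 18 libraries in one fit and 34.4% with the later-year libraries. The libraries behind these changes are given with their values in the account of each gene above, and the causes of these changes were not tested.

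With the replicate block, limma gave *Ass1* on day 3 an adjusted p of 0.0657, *Asl* on day 6 0.0617 and *Asl* in the interaction 0.0499. The interaction spans days that the numbers did not pair. The block changed no other call of a member. From day 0 to day 3, where the numbers did not pair the libraries, the block left 4 members called in WT and 1 in DKI cells, with 38.1% and 32% of all genes called.

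Signs turned for differences that were not called. With the later-year libraries, *Srm* was at 0.16 on day 3 in DKI against WT and at -0.47 in the interaction of days 3 and 6, and *Odc1* at 0.066 from day 3 to day 6 in WT. From day 3 to day 6 in DKI cells *Srm* was at 0.036 with median centring and 0.024 with quantile normalization. On leaving out 1 library, DKI against WT on day 0 ranged from -0.26 to 0.19 for *Ass1* and -0.068 to 0.063 for *Asl*. On day 3 *Slc7a2* ranged from -0.00011 to 0.96, *Odc1* from -0.22 to 0.043 and *Srm* from -0.73 to 0.028. From day 0 to day 3 in DKI cells *Ass1* ranged from -0.016 to 0.32. From day 3 to day 6, *Asl* ranged from -0.16 to 0.047 and *Odc1* from -0.10 to 0.051 in WT cells, and *Srm* from -0.53 to 0.23 in DKI cells. In the interaction of days 3 and 6, *Slc7a2* ranged from -0.11 to 1.25 and *Srm* from -0.37 to 0.39.

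Over all genes, 723 calls on day 3 became 358 without the filter and 1359 with all 18 libraries in one fit, with 197 to 715 on leaving out 1 library. The 742 calls on day 6 became 187, 1573 and 90 to 984, and 38 with the later-year libraries. On day 6 quantile normalization gave 342 higher and 310 lower. Depth limits *Nos2* on day 0, and 3 libraries per group limit every test. A planned ratio of *Sat1* to *Odc1* was not run, since *Sat1* was not analysed here.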
